A study of Mus musculus with 6 samples.

Results

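The S100 calcium-binding proteins were examined in immortalized mouse fibroblasts (MF cells) through the transcripts of 8 genes, taken by symbol: *S100a1*, *S100a3*, *S100a4*, *S100a6*, *S100a10*, *S100a11*, *S100a13* and *S100a16*. All 8 were among the 19078 genes of the table. Poly(A)-selected RNA was sequenced in 3 *Ms4a15* OE libraries and 3 control libraries. *Ms4a15* OE cells are a pooled line in which lentiviral guides direct CRISPR activation to the endogenous *Ms4a15* gene. The control cells are labelled wild type and received an empty lentivirus according to the methods of the study. Those methods describe the fibroblasts as male and embryonic, with a conditional knockout of *Gpx4*, with Cre-ERt2 and with the CRISPR activation system. The label wild type therefore does not mean unmodified cells. Levels are given as the authors' mean over all 6 libraries of the normalized count, which is the number of reads on a gene divided by a size factor that corrects each library for its depth. This mean pools *Ms4a15* OE and control cells and the authors' own comparison of the groups was left out, so no level per group, no spread between libraries and no test is given. *Ms4a15* itself had a mean of 638 normalized counts, and whether its level followed the labels could not be checked on a mean over both groups.

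S100 proteins are small proteins that carry a pair of EF-hand motifs, the helix-loop-helix fold with which calmodulin also holds calcium. Most form dimers, bind calcium when its cytosolic concentration rises, and then expose a surface that grips partner proteins such as annexins, myosin heavy chains and subunits of ubiquitin ligases. S100A10 is an exception, as its EF-hands have lost the ability to bind calcium and it holds its annexin partner without it. Fibroblasts are known for expressing several of these genes, and *S100a4* also goes by the name fibroblast-specific protein.

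The 8 genes lie on chromosome 3 of the mouse assembly GRCm38, in a cluster of 3054 kb from base 90511034 to base 93564643, with 7 on the forward strand and *S100a1* on the reverse strand. Stretches of 100 bases before the starts of *S100a11*, *S100a6* and *S100a4* are shown because these genes belong to the 4 members with the highest levels below and each has a single start in the RefSeq promoter table (GRCm38.p6). They run 5′ to 3′ and end before the first base of the gene in RefSeq and in GENCODE. Both strands were searched for 4 motifs. The TATA box, which positions the polymerase near the start, was searched as TATAAA. The box named CCAAT, which is bound by the factor NF-Y, was searched by the letters of its name. The GC box, to which factors of the Sp family bind, was searched as GGGCGG. The AP-1 motif, at which dimers of Fos and Jun proteins bind, was searched as TGANTCA. Capitals mark the matches, none of which overlap, and the stretch of *S100a6* holds none.
*S100a11*, chr3:93520388-93520487, forward strand: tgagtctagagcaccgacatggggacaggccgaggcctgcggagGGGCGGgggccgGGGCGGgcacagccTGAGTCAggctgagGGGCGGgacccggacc
*S100a6*, chr3:90612782-90612881, forward strand: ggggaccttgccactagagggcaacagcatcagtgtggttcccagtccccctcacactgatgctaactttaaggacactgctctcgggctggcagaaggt
*S100a4*, chr3:90603670-90603769, forward strand: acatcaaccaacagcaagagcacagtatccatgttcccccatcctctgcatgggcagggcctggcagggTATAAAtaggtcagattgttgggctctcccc

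The 3 promoters shown had no motif in common. Each motif was matched in only 6.75% to 33.8% of all 32851 windows of 250 bases, so the lack of a shared motif says little about these genes. In *S100a4* a TATA box match began 31 bases before the RefSeq start, from which all positions here are counted, with no match to the other 3 motifs within 250 bases. *S100a11* had no TATA box match, but GC box matches began 64, 52 and 24 bases before its start and AP-1 matches 136 and 38 bases before it. The only match of *S100a6* within 250 bases was a CCAAT box 228 bases before the start, outside the stretch shown. The upstream window of *S100a11* held 11 CG dinucleotides, against 3 in that of *S100a6* and 2 in that of *S100a4*, with a median of 6 over all windows.

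*S100a1* and *S100a13* stand head to head, with RefSeq starts 105 bases apart on opposite strands. The 104 bases between them lie upstream of both RefSeq starts. In GENCODE *S100a1* starts 62 bases further upstream, so part of these bases belongs to that gene there. Neither gene had a match to any of the 4 motifs within 250 bases. RefSeq windows were found for 7 of the 8 members, 11 windows in all, since *S100a3* had 4 and *S100a16* had 2. Of these 11 windows, 2 held a TATA box match, 2 a CCAAT box match, 3 a GC box match and 2 an AP-1 match. Over all 32851 windows of 250 bases, a TATA box match was present in 12.4%, a CCAAT box in 33.8%, a GC box in 32.7% and an AP-1 motif in 6.75%. A match of letters describes the sequence and does not show that a factor binds there.

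Levels of different genes were compared per length, as the mean normalized count per kb of the union of a gene's exons in GENCODE M21. *S100a11* (calgizzarin, a partner of annexin A1) had a mean of 19210 normalized counts and a level of 37593 per kb. *S100a6* (calcyclin, a partner of the *Cacybp* product) had a mean of 48107 normalized counts and a level of 35192 per kb. *S100a4*, whose protein binds the heavy chain of non-muscle myosin and favours its disassembly, had a mean of 12857 normalized counts and a level of 22015 per kb, and 51.7% of its exonic bases overlap *Gm42674*, a gene on the same strand that was not listed. *S100a10*, the light chain of the annexin A2 complex, had a mean of 18572 normalized counts and a level of 15324 per kb. These 4 genes ranked 21, 23, 51 and 87 among the 16161 genes to which a length could be given. *S100a11* was 2.45-fold above *S100a10* over the union of exons and 1.02-fold above it over the coding length.

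The other 4 members were lower by at least 7.59-fold per kb. *S100a1*, known as a regulator of calcium release channels and calcium pumps in muscle, had a mean of 1401 normalized counts and a level of 2019 per kb. *S100a13*, which takes part in the unconventional export of *Fgf1* and *Il1a* products, had a mean of 688 normalized counts and a level of 962 per kb. The head-to-head pair thus differed 2.10-fold, or 3.47-fold over the coding length. That length is the longest annotated coding sequence of a gene, and the 480 bases of *S100a13* are the most among the members. *S100a16*, a widely expressed member, had a mean of 258 normalized counts and a level of 159 per kb. *S100a3*, known from the hair cuticle, had a mean of 263 normalized counts and a level of 46.5 per kb. From the highest to the lowest member the level differed 808-fold over the union of exons, 734-fold over the longest transcript, 260-fold over the coding length and 187-fold without division by length.

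**Figure D1:**
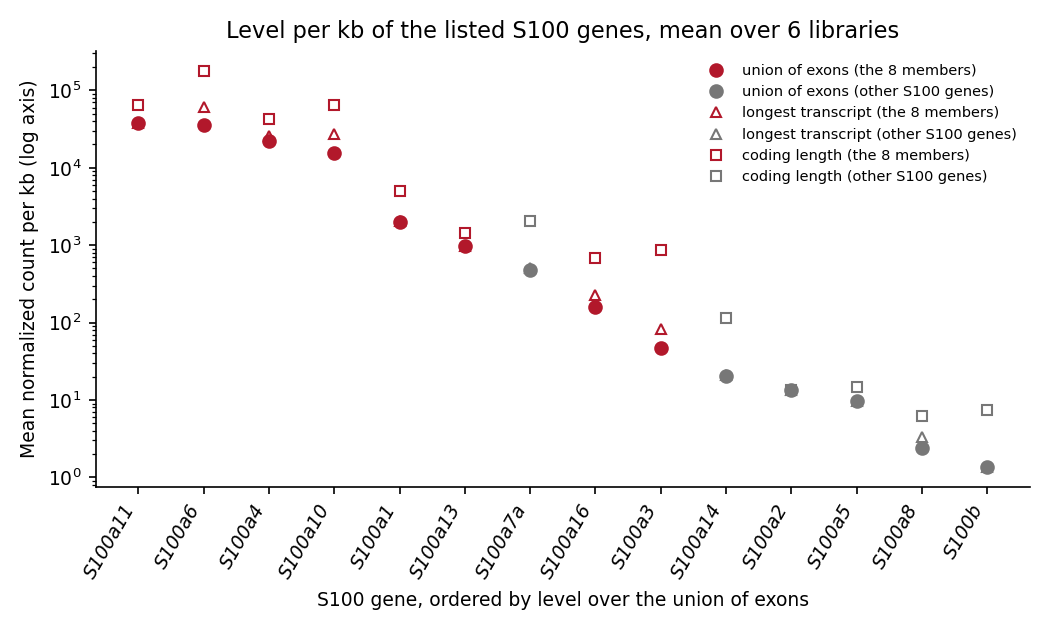
Mean normalized count per kb (log axis) of the 14 listed S100 genes, ordered by the level over the union of exons (circles), with the levels over the longest transcript (triangles) and over the coding length (squares); the 8 members are red and other S100 genes grey, and each symbol is the authors' mean over 6 libraries, without an error. *S100a11*, *S100a6*, *S100a4* and *S100a10* lie above all others with each length, from 15324 to 37593 per kb over the union of exons.

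The division into 4 high and 4 lower members was found with each of the 4 ways of treating length, with a gap between the lowest of the high members and *S100a1* from 7.59-fold to 12.5-fold. Within the high group the order could not be settled. *S100a11* led *S100a6* by 1.07-fold over the union of exons, whereas *S100a6* led over the longest transcript, at 61439 against 37593 per kb. *S100a10* was below *S100a4* over the union of exons (1.44-fold) and above it over the longest transcript, at 27113 against 25817 per kb. *S100a1* and *S100a13* kept the fifth and the sixth place throughout. The lowest pair depended most on the length: *S100a3* is annotated with exons over a wide region, a union of 5660 bases against a coding length of 303 bases, and over the coding length it stood above *S100a16*, at 869 against 693 per kb. Because the spread between libraries was not available, neighbours in these orders cannot be said to differ.

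Placed among all 16161 genes with a length, the high members exceeded nearly all of them. The level per kb was higher than that of 99.87% of genes for *S100a11*, 99.86% for *S100a6*, 99.68% for *S100a4* and 99.46% for *S100a10*. *S100a1* exceeded 93.9% of genes and *S100a13* 85.8%. *S100a16* and *S100a3* were close to the middle of all these genes, above 54.3% and 41.2% of them, where the median gene had 117 normalized counts per kb. Among the 11713 genes whose mean reached 10, they exceeded only 37.0% and 19.0%, and the median there was 278 per kb. In all, 5 of the 8 members were in the top 10% of genes, which begins at 1374 per kb. None of the 6 other listed S100 genes was, the highest being *S100a7a*, above 73.8% of genes. The members were chosen with earlier results of these data known, so their count does not speak for the family. When the 16161 genes with a length were ranked without division by length, *S100a1* exceeded 65.1% of them and 4 members were in the top 10%.

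**Figure D2:**
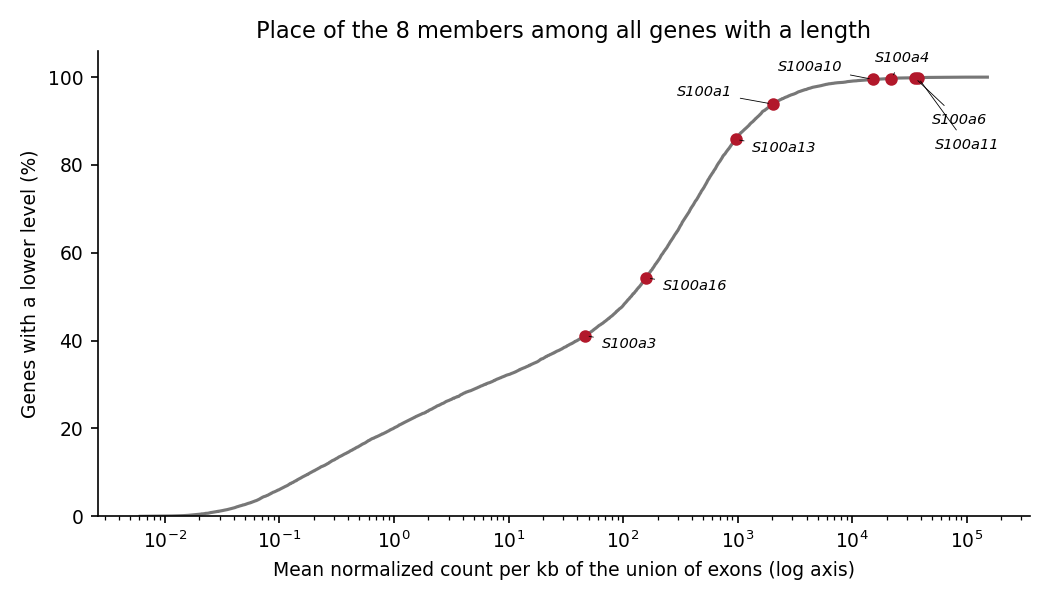
Percentage of genes with a lower level (vertical axis) against the mean normalized count per kb of the union of exons (log axis) for 16161 genes (grey line), with the 8 members as red points. *S100a3* and *S100a16* lie near the middle of all these genes, those with few reads included, at 41.2% and 54.3%. *S100a4*, *S100a6*, *S100a10* and *S100a11* are all above 99%.

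Within the family, transcripts were concentrated in few genes. The annotation holds 17 coding genes with an S100 symbol, of which 14 were listed. *S100a11* made up 33.0% of the summed level per kb of the listed genes, *S100a6* 30.9%, *S100a4* 19.3% and *S100a10* 13.5%. The top 3 together held 83.3%, and the same 3 genes held 78.6% without division by length, where *S100a10* ranked above *S100a4*. The top 4 held 96.7%, and the remaining 4 members held 2.80%. In reads, *S100a6* alone took 47.1% of the family's summed means and 0.117% of those of all genes, with 71 genes of the table above it. The 14 genes together took 0.249% of all normalized counts.

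Among the 6 listed S100 genes that are not members, *S100a7a* stood out with a mean of 658 normalized counts. It is a gene of the psoriasin group, known from skin. Its level of 478 per kb over the union of exons lay between those of *S100a13* and *S100a16*, and was 10.3-fold above *S100a3*. Over the coding length, which among the members is longest for *S100a13*, *S100a7a* was 1.42-fold above *S100a13* and 2.34-fold above *S100a3*. *S100a14*, an epithelial member, had a mean of 35.5 normalized counts and a level of 20.6 per kb, 7.74-fold below *S100a16*. The other 4 had means under 10 normalized counts, at 4.22 for *S100a2*, 4.14 for *S100a5*, 2.03 for *S100b* and 1.64 for *S100a8*. *S100a9*, the partner of *S100a8* in the calprotectin of neutrophils, was not listed, nor were *S100g* and *S100z*. *S100b*, the S100 gene of glia and melanocytes, lies on chromosome 10 and was at 1.37 per kb.

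The cluster fell into separate blocks. *S100a1*, *S100a13*, *S100a16*, *S100a3*, *S100a4* and *S100a6* occupy 113 kb, and *S100a11* and *S100a10* occupy 44.2 kb at the far end, 2896 kb away. The step from *S100a3* to *S100a4* was the sharpest between neighbouring members, from 46.5 to 22015 per kb. *S100a5*, which lies between *S100a4* and *S100a6*, was at 9.59 per kb while these neighbours were at 22015 and 35192. *S100a2*, inside the annotated span of *S100a3*, was at 13.4 per kb. Low and high genes thus alternate within 1 block.

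The stretch between *S100a6* and *S100a11* belongs to the epidermal differentiation complex and holds genes of the cornified layer of skin such as loricrin, involucrin, the small proline-rich proteins and the late cornified envelope proteins. Of the 63 coding genes annotated there, 20 were listed. The 3 S100 genes among them are *S100a7a*, *S100a8* and *S100a9*, all near the *S100a6* end. *S100a7a* had a mean of 658 normalized counts and a level of 478 per kb, so the stretch was not low throughout. Without these 3 genes, 18 of 60 were listed, with means from 0.151 to 5.80 normalized counts and a median of 0.414. *Lor* and *Ivl*, the genes of loricrin and involucrin, were not listed, and *Sprr1a* had a mean of 5.79 normalized counts. Of the 7 fused-type genes, which join an S100 domain to a long repeat, only *Tchhl1* was listed, at 0.178 normalized counts. *S100a11* and *S100a10* on the far side were at 37593 and 15324 per kb. Before *S100a1*, the nearest 5 listed genes had means from 35.0 to 8659 normalized counts, and after *S100a10* the nearest 5 had means from 0.504 to 329.

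**Figure D3:**
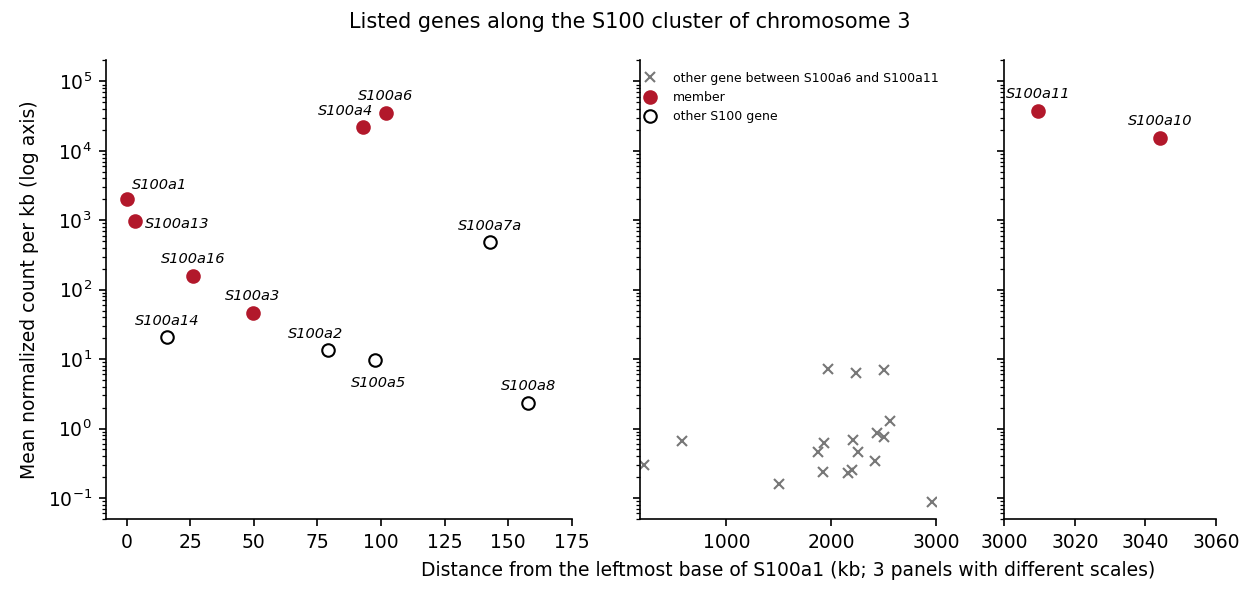
Mean normalized count per kb of the union of exons (log axis) of listed genes against the distance in kb from the leftmost base of *S100a1*, in 3 panels with different horizontal scales; red circles are members, open circles other S100 genes and crosses the other listed genes between *S100a6* and *S100a11*. *S100a4*, *S100a6*, *S100a11* and *S100a10* lie at 15324 per kb or more, on both sides of the stretch between. Within that stretch *S100a7a* lies at 478 per kb, and the genes that are not S100 genes have means of at most 5.80 normalized counts.

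Partners of S100 proteins were read from a list of 35 genes, of which 32 were listed. The 3 that were not listed, *Kcnk3*, *Trpv5* and *Trpv6*, belong to the membrane and scaffold partners, as does *Ahnak*. Means reached 1000 normalized counts in 25 of the 32 listed genes, and 15 were in the top 10% of genes per kb. The median over the list was 1122 per kb, against 117 over all genes with a length and 278 over those whose mean reached 10. A mean of 1000 is not rare in the table, since *S100a1*, at 1401 normalized counts, ranked 5719 by mean among the 19078 genes. Of the annexins, the best known partners, 5 of 5 had a mean of at least 1000. *Anxa2*, which forms a heterotetramer with S100A10 at membranes, was at 14239 per kb, and *S100a10* was 1.08-fold above it, a ratio that was 1.22 over the coding length and 0.350 without division by length. *Anxa1*, the partner of S100A11, was at 8516 per kb, and *S100a11* was 4.41-fold above it, or 2.54-fold over the longest transcript. *Ahnak*, a giant scaffold held by the *S100a10* and *Anxa2* complex, was at 1612 per kb, 9.50-fold below *S100a10*, or 33.7-fold below it over the coding length. In normalized counts not divided by length, *Anxa2*, *Anxa1* and *Ahnak* were each above their S100 gene. These are ratios of transcripts per length and not of proteins.

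For S100A6, all 6 genes of ubiquitin ligase and chaperone partners were listed, with means of 3765 or more. *Cacybp*, the calcyclin-binding protein, was at 7002 per kb, and *S100a6* was 5.03-fold above it, or 7.70-fold over the longest transcript. *Sugt1* was at 483 per kb, and the co-chaperones *Stip1* and *Fkbp4* were at 9769 and 8336 per kb. For S100A4, the non-muscle myosin heavy chain *Myh9* was at 2513 per kb, 8.76-fold below *S100a4* per kb but above it in normalized counts (32494 against 12857), and *Myh10* was at 993 per kb. The liprin *Ppfibp1* was at 1723 per kb while its paralog *Ppfibp2* had a mean of 12.7 normalized counts. *Bsg*, the gene of a membrane protein that serves as an S100 receptor, was at 8875 per kb.

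Among the partners of S100A13, 3 genes were low. *Fgf1* and *Il1a*, whose products are exported with S100A13, had means of 1.87 and 10.7 normalized counts, and *Syt1*, a further part of that export complex, had 3.43. *Ryr2*, the cardiac calcium release channel that S100A1 acts on, had a mean of 1.03 normalized counts. *Ager*, the receptor for advanced glycation end products through which several secreted S100 proteins signal, had a mean of 34.6. *Capzb* and *Capza1*, genes of the actin capping protein, a known S100 target, were at 2747 and 1543 per kb, against 2019 for *S100a1*. Over the coding length *S100a1* was below both, at 0.495 of *Capzb* and 0.73 of *Capza1*. Without division by length it was at 0.155 and 0.240 of them.

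General calcium sensors set a scale for the family. Of 16 such genes, 14 had means of 1000 or more, and their median was 1277 per kb. *Calm2*, a gene of calmodulin, was at 16274 per kb. *S100a6* was above *Calm2* under each treatment of length, by 2.02-fold to 3.37-fold, and *S100a1* was below it under each. The place of the other 3 high members turned with the length. *S100a11* was 2.31-fold above *Calm2* over the union of exons and at 0.805 of it without division by length, *S100a4* went from 1.35 to 0.539 of it, and *S100a10* from 1.37 over the longest transcript to 0.778. *Stim1*, the sensor of calcium in the ER, was at 105 per kb, and *Stim2* at 312. *Efhd1* was listed at a mean of 0.163 normalized counts, the value that 1 read in a single library gives.

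**Figure D4:**
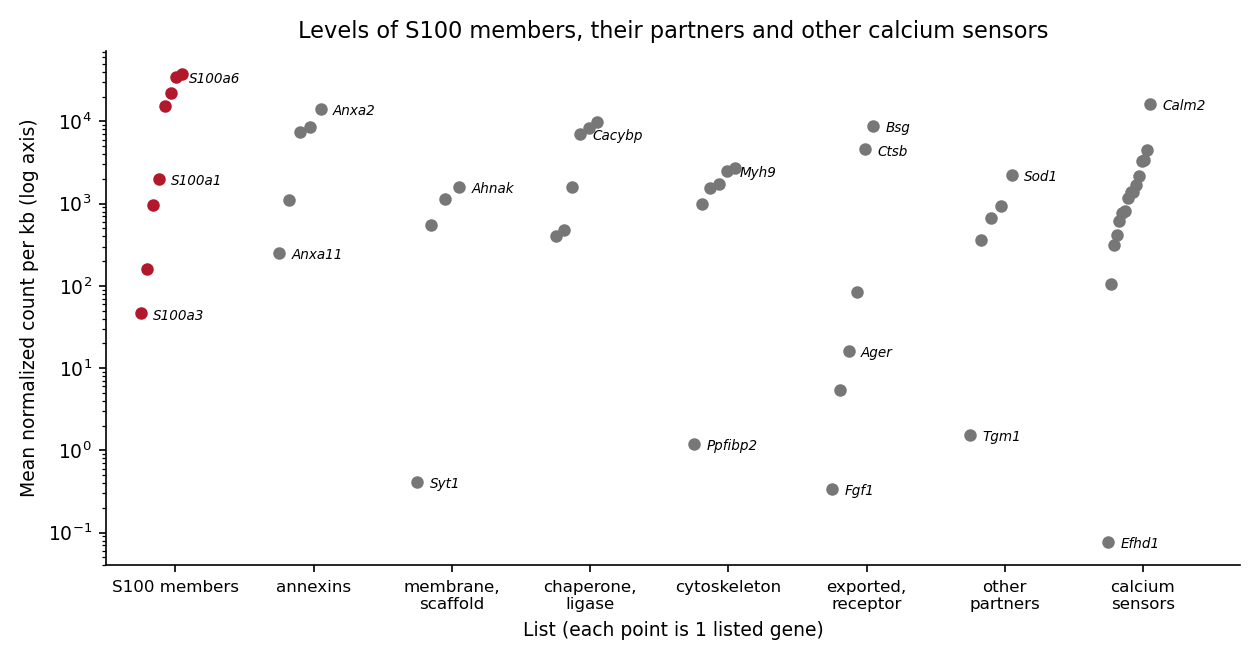
Mean normalized count per kb of the union of exons (log axis) for the 8 members (red) and, in grey, for the listed genes of 6 lists of S100 partners and of the list of calcium sensors, with 1 point per gene and some genes named. *S100a6* lies at 35192 per kb, above *Calm2* at 16274 and *Anxa2* at 14239, while *Fgf1*, *Syt1* and *Efhd1* are below 1 per kb.

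The fibroblast label was checked against a fixed list of 11 markers. *Vim*, *Col1a2*, *Fn1* and *Col1a1* had the highest means, of 115135, 135155, 114243 and 66981 normalized counts. *Lum* and *Dcn*, markers of resident fibroblasts, were at 0.675 and 12.1. *Pdgfra* had a mean of 278, and its level per kb exceeded that of 37.8% of genes. In all, 8 of 11 fibroblast markers had a mean of at least 1000. None of the 7 epithelial, 7 leukocyte, 5 neutrophil, 4 endothelial, 5 glial or melanocyte and 6 cornified keratinocyte markers did, with the highest at 170 for *Krt14* and 164 for *Cd68*, and of 6 muscle markers only *Tnnt2* did, at 5787. The 7 epithelial markers summed to 185 normalized counts, most of them from *Krt14*. A contribution of other cells to *S100a7a* or to the low S100 genes was not tested. In bulk RNA fewer cells with a transcript cannot be told from less of it in each cell.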

How the data were processed

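Poly(A)-selected RNA of 3 *Ms4a15* OE and 3 control libraries was sequenced. According to the paper's methods, the authors aligned reads to mm10 with STAR and UCSC knownGene models, counted them with HTSeq and used DESeq2. The submitters' processing notes also name TopHat, Cufflinks and Cuffdiff. The deposited signal per gene is a mean normalized count, taken by the authors over both groups together (6 libraries). The remaining columns of the deposited table hold the authors' comparison of *Ms4a15* OE with control, and these were not used. Counts per library were not analysed here, so the planned count test with edgeR was not run. Whether counting used the strand is not given in the sources used here.

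Depth was read from the means of 1267 genes with 1 read in a single library, which fall on 6 values and give size factors from 0.887 to 1.14. The means add up to 40991755 normalized counts. No interval is given, since the read totals are unknown. Lengths and positions were taken from GENCODE M21 (GRCm38) by symbol for 16161 genes (84.7%), among them 1485 matched through an older RefSeq symbol, and 96.1% of the 10440 genes whose mean reached 100. These models differ from those the authors counted on, so levels per kb are approximate. Within them, 51.7% of the exonic bases of *S100a4* overlap the same-strand gene *Gm42674*, which was not listed, and reads there may have been divided or dropped.

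Genes named are the members, other S100 genes, fixed lists of partners, calcium sensors and cell type markers, and neighbours on the chromosome. *Ryr2* belongs to the muscle markers. Members and lists were chosen with earlier results of these data known. After values were seen, older symbols were added to the matching, partners were divided into roles, 4 members were described as a high group, the mean of 1000 was set for counting listed genes, and the motifs, the stretches printed and the ratios given were chosen. Where several genes share a symbol, the coding gene with the longest union of exons was used. No gene whose pattern resembles that of the members is named, since a single mean holds no pattern. The functions for lengths and percentiles were tested on simulated data. Python 3.11.15, numpy 2.4.6, pandas 2.3.3 and matplotlib 3.10.9 were used.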

Additional observations from a re-analysis of the deposited data

How the results depend on the processing

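All alternatives here concern lengths or the genes ranked. No paired analysis was possible because counts per library were not analysed here. For the same reason a DESeq2 test, other size factors, a filter on counts and leaving out replicates were not run.

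Over the longest transcript, the levels per kb were 61439 for *S100a6*, 25817 for *S100a4*, 27113 for *S100a10*, 2070 for *S100a1*, 229 for *S100a16* and 83.7 for *S100a3*, and *S100a11* and *S100a13* did not change because the longest transcript of each covers all its annotated exons. Over the coding length they were 65340 for *S100a11*, 180175 for *S100a6*, 42432 for *S100a4*, 63823 for *S100a10*, 4969 for *S100a1*, 1432 for *S100a13*, 693 for *S100a16* and 869 for *S100a3*. The largest shift was that of *S100a3*, 18.7-fold above its level over the union of exons, where a coding length replaces 5660 bases of exons.

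Ranked among the 11713 genes whose mean reached 10, the members exceeded 99.82% (*S100a11*), 99.80% (*S100a6*), 99.56% (*S100a4*), 99.26% (*S100a10*), 91.5% (*S100a1*), 80.4% (*S100a13*), 37.0% (*S100a16*) and 19.0% (*S100a3*) of genes. Without division by length, over all genes of the table, they exceeded 98.37%, 99.62%, 97.05%, 98.27%, 70.0%, 59.9%, 50.5% and 50.7% in the same order. Without division by length but over the 16161 genes with a length, a setting added later, they exceeded 98.11%, 99.58%, 96.58%, 98.0%, 65.1%, 53.55%, 43.15% and 43.27%, again with 4 members in the top 10%. The share of the family total held by the top 3 members was 84.2% without division by length and 85.5% over the coding length, with *S100a10* in place of *S100a4* among the 3 in both. *S100a11*, *S100a6* and *S100a4* held 78.6% and 79.6% there. The number of members in the top 10% of genes was 5 among genes whose mean reached 10 and 4 without division by length.

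Matching by current symbol only, a setting added after the data were seen, left 14676 genes, of which the members exceeded 99.67% (*S100a4*), 99.43% (*S100a10*), 93.59% (*S100a1*), 85.33% (*S100a13*), 53.77% (*S100a16*) and 40.79% (*S100a3*). The percentages of *S100a11* and *S100a6* and the 5 members in the top 10% did not change.

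The means carry no spread between libraries, which limits every order of neighbouring genes, and genes with a mean under 1 rest on a few reads in all.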
